A study of Homo sapiens with 9 samples.

Results

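The 10 genes described here encode the proteins that move calcium out of the cytosol and those that refill the calcium store of the endoplasmic reticulum. They are ATP2B1 and ATP2B4 (pumps of the plasma membrane), ATP2A2 (pump of the endoplasmic reticulum), ATP2C1 and ATP2C2 (pumps of the Golgi), STIM1 and STIM2 (calcium sensors of the endoplasmic reticulum) and ORAI1, ORAI2 and ORAI3 (the channels that these sensors open). They were chosen by name, with earlier results of these data known, and all 10 were found among the 56609 distinct gene symbols of the deposited table. RNA was sequenced in 9 samples of the MCF10A line, which is an established line of human breast epithelium and does not form tumours. The 3 control samples were untreated, and the labels give no time for them. The 3 high calcium samples had received 10 mM calcium together with ionomycin, an ionophore that carries calcium across membranes (1 mM as labelled), for 16 h. The 3 TGFb3 samples had received 10 nM transforming growth factor beta 3 for 16 h. All 9 samples shared a growth medium with horse serum, epidermal growth factor, hydrocortisone, cholera toxin and insulin. Calcium and ionomycin were never given separately and so cannot be told apart. Nothing in the labels says that replicates were separate cultures. The p-values therefore reflect the spread of these samples alone, and that spread may be technical.

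As background, the calcium ATPases spend ATP to move calcium from the cytosol across the plasma membrane, into the endoplasmic reticulum or into the Golgi. When the store of the endoplasmic reticulum empties, STIM proteins in its membrane sense the fall, move next to the plasma membrane and open ORAI channels, which is called store-operated calcium entry. In the lactating breast the same families carry calcium towards milk, where the plasma membrane pump ATP2B2 is the known apical pump and ATP2C2 is the Golgi pump linked to ORAI1.

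In high calcium, ORAI3 rose from 2.21 ± 1.40 to 17.7 ± 1.17 TPM and STIM1 from 16.0 ± 0.784 to 40.7 ± 1.17 TPM, the largest log2 differences of the 9 members that could be tested (SD, n = 3). ATP2B1 rose from 28.7 ± 1.71 to 57.0 ± 1.87 TPM and ATP2A2 from 234 ± 14.0 to 415 ± 9.65 TPM, and neither ORAI1 nor STIM2 passed the test. In TGFb3, ATP2B1 fell to 19.0 ± 0.607 TPM while the other tested pumps, STIM1, ORAI2 and ORAI3 rose. The test was limma on log2(TPM + 1), where TPM is the number of transcripts per 1000000, a share of each library corrected for gene length. A gene was called at a Benjamini-Hochberg adjusted p under 0.05 over all 13968 symbols whose mean over the 9 samples reached 1 TPM. High calcium raised 7 of the 9 tested members and lowered 0, where 46.1% of all tested symbols were called higher and 17% lower (63.1% either way). Quantile normalisation gave 6 members higher and 2 lower, while median ratio rescaling and leaving out mitochondrial genes each gave 7 and 1. TGFb3 raised 6 and lowered 1, where 26.5% of all tested symbols were called higher and 33.1% lower (59.6% either way). Called changes were therefore common among all genes, and the members' counts are a description only. The treated samples all lay on one side of the controls for 8 of 9 members in high calcium (69% of all tested symbols) and for 7 of 9 in TGFb3 (63.8%). The median log2 difference of the 9 was 0.83 in high calcium and 0.41 in TGFb3, beside 0.22 and -0.056 over all tested symbols. All 9 tested members also reached a mean of 1 TPM within the control group, while ATP2C2 was too low to be tested. Both treatments were set against the same 3 controls.

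**Figure D1:**
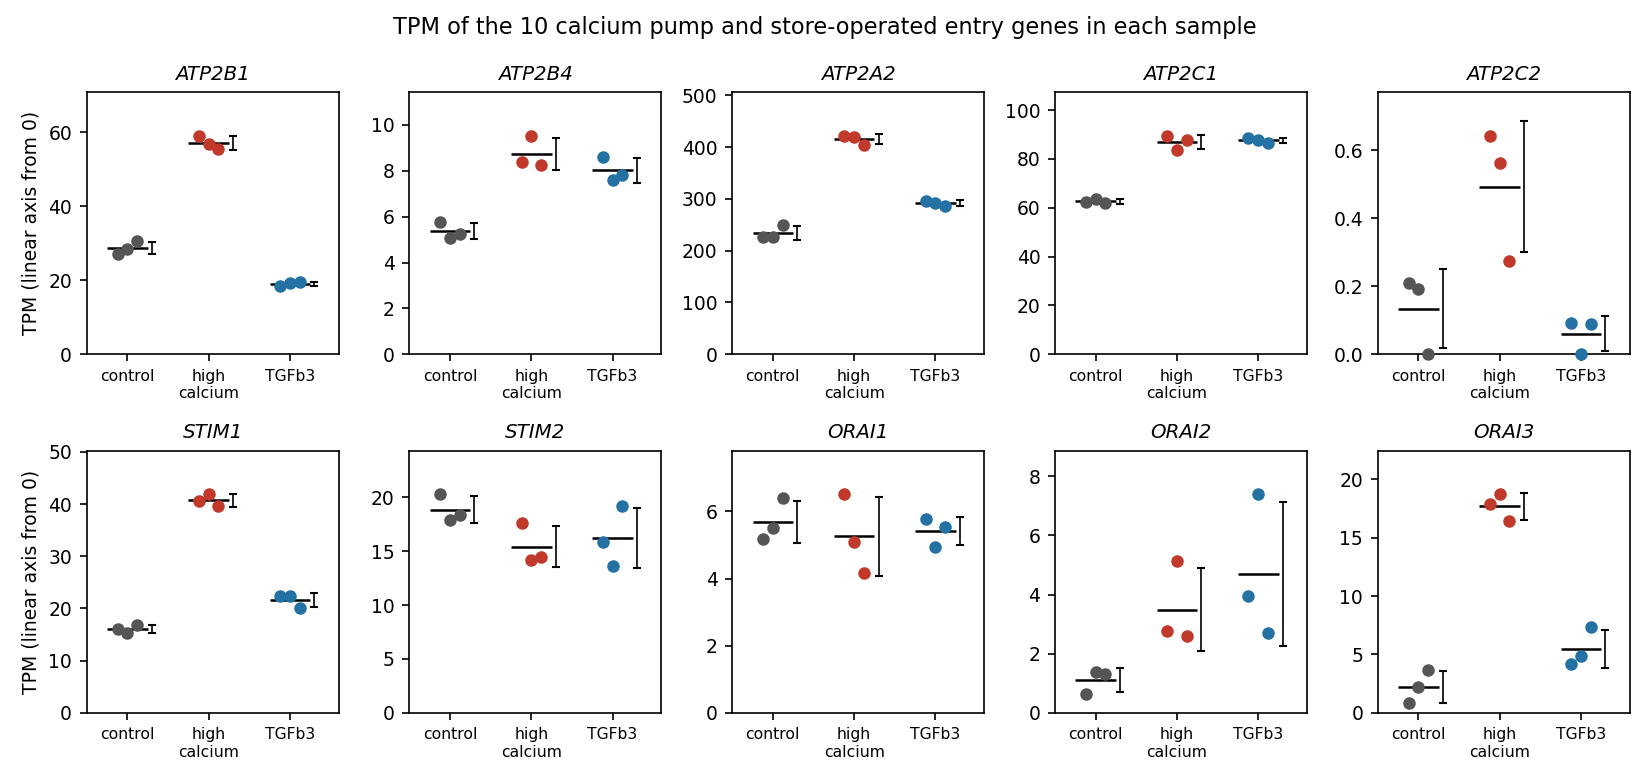
TPM of each of the 10 genes in the 9 samples on linear axes from 0. Points are samples, black lines are group means and brackets are ± SD over the 3 samples of a group. ATP2A2 was the highest of the 10 in every group, ORAI3 lay between 16.4 and 18.7 TPM in high calcium, above all other samples, and ATP2C2 stayed below 1 TPM throughout.

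The depth behind these values is unknown, because TPM does not keep it. Mitochondrially encoded RNA made up 22.71 ± 0.914% of TPM in controls (SD, n = 3). It made up 11.46 ± 0.371% in high calcium (exact two-sided permutation p = 0.1, the lowest value possible with 3 samples a group) and 22.73 ± 0.588% in TGFb3 (p = 0.9 by the same exact test). As TPM sums to a fixed total, this share moves every other value. Relative to the median of all tested symbols, differences from control in high calcium are smaller by 0.22. Of all calls in high calcium against control 73% were higher as deposited, 55.1% with mitochondrial genes left out, 50.4% after median ratio rescaling and 47.2% after quantile normalisation. For high calcium against TGFb3 these shares were 75.7%, 59.5%, 50% and 51.1%. The nuclear noncoding RNA MALAT1, whose share can shift with RNA quality, had 158 ± 44.7 TPM in controls, 424 ± 32.2 TPM in high calcium and 204 ± 12.4 TPM in TGFb3. The 7 epithelial markers summed to 3255.5 to 3431.8 TPM in controls, 6389.3 to 6624.6 in high calcium and 3904 to 4595.3 in TGFb3. All 7 rose in high calcium, while in TGFb3 4 rose, KRT17 among them (from 1285 to 2453 TPM), and EPCAM (from 294 to 118 TPM) and KRT18 (from 335 to 235 TPM) fell. The 5 fibroblast markers summed to at most 3.44 TPM in controls, 12.3 in high calcium and 32.0 in TGFb3, mostly COL1A1 and DCN. Endothelial markers were at 0.262 TPM or less, and the immune markers PTPRC and CD3E were at 0 in all 9 samples, while the immune marker CD14 was at 18.1 to 21.4 TPM in controls, 32.3 to 39.1 in high calcium and 1.99 to 3.26 in TGFb3. The part of these shifts in the members' results was not tested. In bulk RNA, fewer cells of a type and less RNA per cell cannot be told apart.

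The promoters of ORAI3, STIM1 and ATP2A2, which rose in both treatments, and of ATP2B1, which moved in opposite directions, are shown so that these differences can be set beside their sequence. Each run is the stretch of up to 250 bases before a RefSeq start on GRCh38.p14, 5′ to 3′ on the strand of the gene. RefSeq gives 4 windows for STIM1, 2 for ATP2A2 and 2 for ATP2B1. The one shown was chosen after the motif matches were known, and that of STIM1 is the only one of its 4 with a match. The bases after the start shown were found in a GENCODE release 29 transcript of the gene for ORAI3. For STIM1, ATP2A2 and ATP2B1 they were not found, although those of another window of each gene, not shown, were. The starts shown for ATP2A2 and ATP2B1 lie outside the gene spans given below. Whether these starts were used in these cells was not tested. Capitals mark a CCAAT box (ATTGG is its reverse complement) or TGACG, the core of the cyclic AMP response element bound by CREB and ATF factors (CGTCA on the other strand).

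ORAI3, chr16:30948818-30949065, + strand: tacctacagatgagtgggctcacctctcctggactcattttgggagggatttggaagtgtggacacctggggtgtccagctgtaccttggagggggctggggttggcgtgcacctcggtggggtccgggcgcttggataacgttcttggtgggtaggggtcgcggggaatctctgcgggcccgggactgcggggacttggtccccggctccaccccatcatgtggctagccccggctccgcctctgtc

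STIM1, chr11:3854913-3855162, + strand: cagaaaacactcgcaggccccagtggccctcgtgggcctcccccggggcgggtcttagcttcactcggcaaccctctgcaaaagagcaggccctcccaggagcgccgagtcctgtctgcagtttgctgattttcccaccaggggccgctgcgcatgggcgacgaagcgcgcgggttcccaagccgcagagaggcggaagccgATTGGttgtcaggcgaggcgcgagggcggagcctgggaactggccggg

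ATP2A2, chr12:110280366-110280615, + strand: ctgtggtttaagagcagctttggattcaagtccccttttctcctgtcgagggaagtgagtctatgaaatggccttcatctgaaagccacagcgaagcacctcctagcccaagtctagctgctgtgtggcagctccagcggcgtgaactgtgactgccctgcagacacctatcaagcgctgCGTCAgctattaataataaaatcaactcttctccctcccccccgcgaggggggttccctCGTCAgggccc

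ATP2B1, chr12:89709367-89709616, - strand: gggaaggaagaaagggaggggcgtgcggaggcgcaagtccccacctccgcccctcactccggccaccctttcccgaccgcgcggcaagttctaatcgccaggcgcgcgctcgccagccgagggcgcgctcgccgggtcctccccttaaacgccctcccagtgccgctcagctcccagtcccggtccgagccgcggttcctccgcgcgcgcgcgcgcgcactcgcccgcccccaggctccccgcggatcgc

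Of the 10 genes, 8 had a RefSeq window of 300 bases (250 before and 50 after a start), 15 windows in all. The 6 motifs searched on both strands were the endoplasmic reticulum stress response element ERSE (CCAAT, 9 bases of any kind, CCACG), ERSE-II (ATTGG, any base, CCACG), the core of the unfolded protein response element (TGACGTGG), the C/EBP-ATF composite core (TGATGNAAN), the CCAAT box and TGACG. ERSE was in 0.0769% of the 35116 windows of all genes, ERSE-II in 0.0541% and the composite core in 3.61%, and no member window held any of them. The unfolded protein response core was in 0.729% of windows and, among members, in that of ORAI2, where its first bases are also the TGACG match. CCAAT was in 34.6% of windows and in at least 1 window of 39.7% of genes. It was found for 3 of the 8 members (STIM1, STIM2 and ATP2A2), in ATP2A2 in the window that is not shown. TGACG was in 24.6% of windows and 28.4% of genes and was found for 4 of the 8 (ATP2A2, ATP2C1, ORAI2 and ATP2B1), in ATP2B1 across the start itself and so outside the run above. The ORAI3 window held none of the 6 motifs; its GC content was 65.7%, beside a median of 58.7% over all windows. The 8 members had 15 windows, and all 27305 genes had 35116. Members thus had more windows each, so counts of members and shares of genes are not fully comparable. These letters are matches and not binding sites, and their absence from a window says nothing about a factor.

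ATP2B1 and ATP2B4 are the plasma membrane pumps that push calcium out of most cells. ATP2B1 (chr12:89588049-89709300, - strand, hg38 with GENCODE release 29) was at 27.1, 28.5 and 30.5 TPM in controls, 59.0, 56.7 and 55.3 in high calcium and 18.3, 19.3 and 19.4 in TGFb3. Its 3 groups did not overlap, with high calcium highest and TGFb3 lowest. The log2 difference was 0.97 ± 0.057 (SE) in high calcium against control (adjusted p = 2.96e-07 by limma), a 1.95-fold rise of TPM + 1. In TGFb3 it fell by 0.57 ± 0.057 on the log2 scale (adjusted p = 1.33e-05). As deposited, ATP2B1 was the only tested member called lower in either comparison with the control. After each rescaling STIM2 was called lower in high calcium too, and after quantile normalisation so was ORAI1. ATP2B4 (chr1:203626561-203744081, + strand) was at 5.76, 5.08 and 5.25 TPM in controls, 8.40, 9.53 and 8.23 in high calcium and 8.62, 7.61 and 7.82 in TGFb3. All treated samples lay above all controls, and the treated groups overlapped. ATP2B4 rose by a log2 of 0.61 ± 0.092 in high calcium (adjusted p = 0.000232) and by 0.50 ± 0.092 in TGFb3 (adjusted p = 0.000887). ATP2B1 made up 84.2 ± 1.52% of the summed TPM of these 2 pumps in controls, 86.7 ± 1.01% in high calcium and 70.4 ± 2.04% in TGFb3 (SD, n = 3). Their sum was 34.1 ± 1.52, 65.7 ± 1.97 and 27.0 ± 0.176 TPM in the same order. ATP2B2 (chr3:10324023-10708007, - strand), the plasma membrane pump of the lactating gland and of hair cells, was listed at 0 TPM in all 9 samples, as was ATP2B3.

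ATP2A2 encodes the pump that fills the endoplasmic reticulum and was the most abundant of the 10 RNAs. ATP2A2 (chr12:110280756-110351093, + strand) was at 226, 226 and 250 TPM in controls, 422, 419 and 404 in high calcium and 297, 292 and 286 in TGFb3. The groups did not overlap and every TGFb3 sample lay between the other groups. It rose by a log2 of 0.83 ± 0.045 in high calcium (adjusted p = 1.94e-07) and 0.32 ± 0.045 in TGFb3 (adjusted p = 0.00017). In both comparisons the direction held under every rescaling, and in high calcium the difference was 0.59 after median ratio rescaling. ATP2A2 took 61.8% to 64.0% of the summed TPM of the 10 genes in every sample, although that sum went from 365, 365 and 394 TPM in controls to 665, 655 and 633 in high calcium and 464, 460 and 455 in TGFb3. Its relatives ATP2A1 and ATP2A3 were at most at 0.566 TPM and at 0 in all 9 samples, respectively.

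The Golgi pumps load the secretory pathway with calcium and manganese. ATP2C1 (chr3:130850595-131016712, + strand) was at 62.4, 63.8 and 61.9 TPM in controls, 89.5, 83.6 and 87.7 in high calcium and 88.4, 87.7 and 86.6 in TGFb3. It rose by a log2 of 0.46 ± 0.039 in high calcium (adjusted p = 3.69e-06) and 0.48 ± 0.039 in TGFb3 (adjusted p = 3.12e-06), and the treated samples overlapped. ATP2C2 (chr16:84368527-84464187, + strand), the second Golgi pump, was at 0.209, 0.192 and 0 TPM in controls, 0.643, 0.563 and 0.274 in high calcium and 0.0923, 0 and 0.0904 in TGFb3. Every high calcium sample lay above every other sample, all of them below 1 TPM. Without the filter on low values, over 26932 symbols, ATP2C2 was called higher in high calcium against control (log2 0.39 ± 0.11, adjusted p = 0.0266) but not in TGFb3 (log2 -0.092, adjusted p = 0.64). ATP2C2 shares 26.2% of its exonic bases with the antisense gene ATP2C2-AS1, which was at 0.637, 0.831 and 0.761 TPM in controls, 4.82, 3.24 and 4.10 in high calcium and 1.40, 1.19 and 1.61 in TGFb3. The strandedness of the libraries is not given in the sources used here, so reads from these shared bases cannot be told apart. ATP2C1 carried 99.8% of the summed Golgi pump TPM in controls, 99.4% in high calcium and 99.9% in TGFb3.

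**Figure D2:**
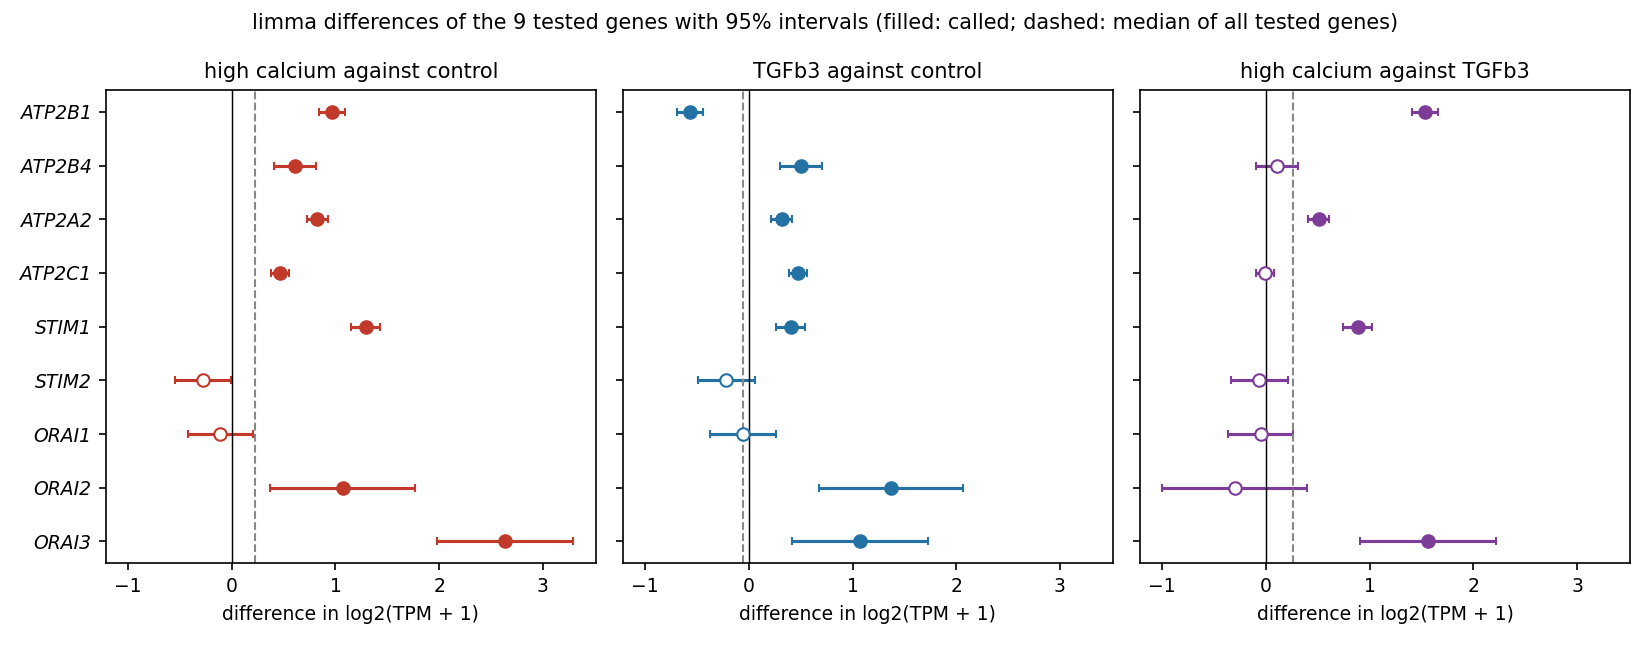
Log2 difference of TPM + 1 for each tested member, with 95% intervals, in the 3 comparisons named above the panels, from left to right. Filled points were called, and dashed lines are the medians of all tested symbols (0.22, -0.056 and 0.27). ORAI3 and STIM1 lie farthest above the line in high calcium, and ATP2B1 is the called point below zero in TGFb3.

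STIM1 and STIM2 are the sensors of the store; STIM2 is known as the one that responds to smaller falls of store calcium. STIM1 (chr11:3854527-4093210, + strand) was at 16.1, 15.2 and 16.8 TPM in controls, 40.6, 41.9 and 39.5 in high calcium and 22.4, 22.3 and 20.0 in TGFb3. No group overlapped another. STIM1 rose by a log2 of 1.29 ± 0.062 in high calcium (95% interval 1.15 to 1.43, adjusted p = 7.87e-08), a 2.45-fold rise of TPM + 1, and by 0.41 ± 0.062 in TGFb3 (adjusted p = 0.000283). STIM2 (chr4:26857678-27025381, + strand) was at 20.3, 17.9 and 18.3 TPM in controls, 17.6, 14.2 and 14.4 in high calcium and 15.8, 13.6 and 19.2 in TGFb3. All high calcium samples lay below all controls, but the log2 difference of -0.28 ± 0.12 did not pass the test (adjusted p = 0.0698), and the TGFb3 difference of -0.22 had a 95% interval of -0.49 to 0.056 (adjusted p = 0.152). The STIM2 difference in high calcium became a call after median ratio rescaling (log2 -0.50, adjusted p = 0.00506), after quantile normalisation (log2 -0.52, adjusted p = 0.00499) and with mitochondrial genes left out (log2 -0.47, adjusted p = 0.0081). It also became a call without high calcium replicate 1 (adjusted p = 0.0305), TGFb3 replicate 2 (adjusted p = 0.0415) or TGFb3 replicate 3 (adjusted p = 0.035), and the TGFb3 difference without TGFb3 replicate 3 (log2 -0.34, adjusted p = 0.0282). STIM1 made up 44.3%, 45.9% and 47.8% of summed STIM TPM in controls, 69.8%, 74.7% and 73.2% in high calcium and 58.6%, 62.1% and 51.1% in TGFb3. In every control STIM2 was the more abundant sensor RNA, and in every treated sample STIM1 was. The summed STIM level was 34.9 ± 1.64, 56.1 ± 2.12 and 37.8 ± 1.68 TPM in control, high calcium and TGFb3.

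**Figure D3:**
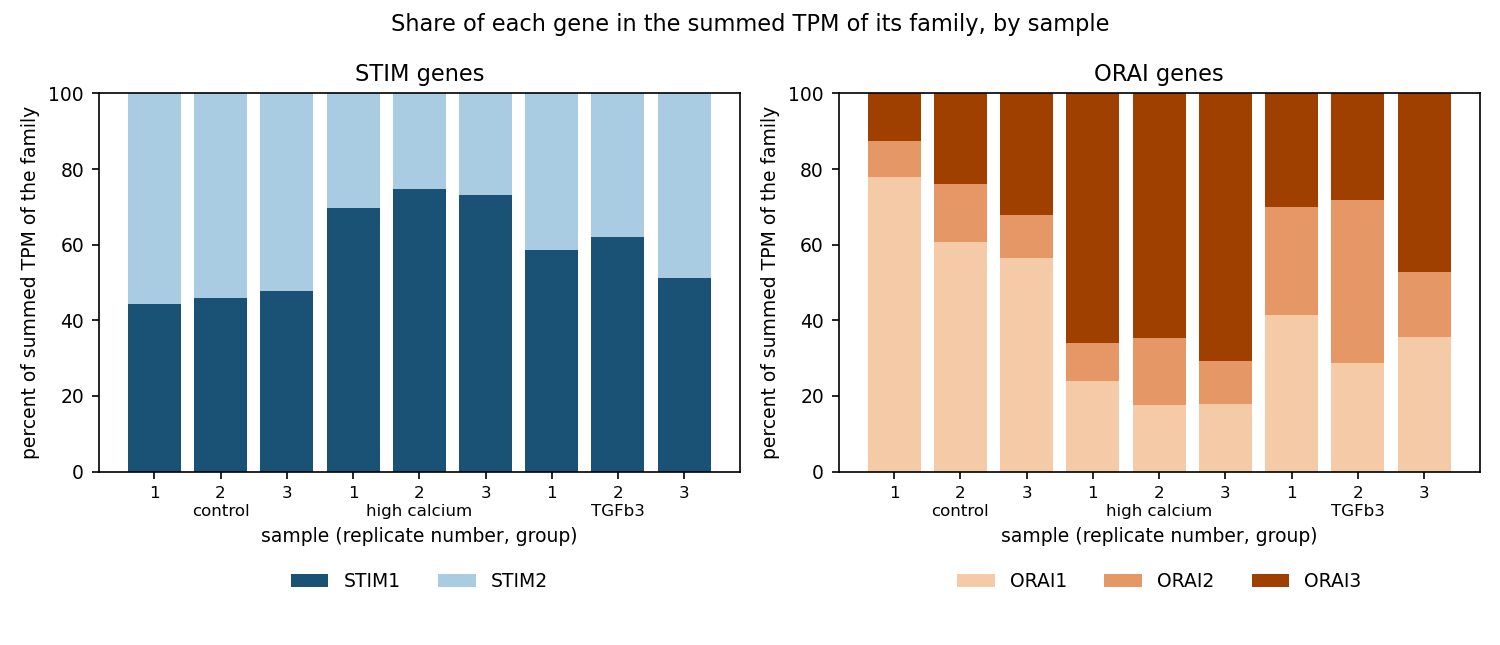
Percent of the summed TPM taken by each gene of the STIM family (left) and the ORAI family (right) in each of the 9 samples, as stacked bars that add to 100. STIM1 took 44.3% to 47.8% in controls and 69.8% to 74.7% in high calcium, and ORAI3 took 12.5% to 32.1% and 64.7% to 70.8%. ORAI3 was counted without the overlapping noncoding gene AC135048.1, which is described below.

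The ORAI genes form the pore of store-operated entry, ORAI1 being the main one in most cells. ORAI1 (chr12:121626550-121642677, + strand) was at 5.19, 5.51 and 6.39 TPM in controls, 6.51, 5.09 and 4.17 in high calcium and 5.78, 4.95 and 5.53 in TGFb3. Its groups overlapped and neither comparison with the control was called: the log2 difference was -0.11 in high calcium (95% interval -0.43 to 0.21, adjusted p = 0.521) and -0.059 in TGFb3 (interval -0.38 to 0.26, adjusted p = 0.74). After quantile normalisation the high calcium difference was called, at a log2 of -0.48 (adjusted p = 0.00977). ORAI2 (chr7:102433106-102456821, + strand) was at 0.628, 1.38 and 1.30 TPM in controls, 2.75, 5.12 and 2.59 in high calcium and 3.96, 7.39 and 2.69 in TGFb3. All treated samples lay above all controls, and replicate 2 was the highest in every group. It rose by a log2 of 1.07 ± 0.31 in high calcium (adjusted p = 0.0126) and 1.37 ± 0.31 in TGFb3 (adjusted p = 0.00352). The high calcium call was lost without its replicate 2 (log2 0.83, adjusted p = 0.0512) and after quantile normalisation (log2 0.68, adjusted p = 0.0851).

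ORAI3 (chr16:30949066-30956461, + strand), the ORAI gene found only in mammals, had the largest log2 difference of the tested members in high calcium. It was at 0.833, 2.17 and 3.64 TPM in controls, 17.9, 18.7 and 16.4 in high calcium and 4.20, 4.83 and 7.32 in TGFb3. No group overlapped another, and replicate 1 of the controls was below the other 2. ORAI3 rose by a log2 of 2.64 ± 0.29 in high calcium (95% interval 1.98 to 3.29, adjusted p = 2.85e-05), a 6.22-fold rise of TPM + 1, and by 1.07 ± 0.29 in TGFb3 (adjusted p = 0.00969). ORAI3 made up 22.9 ± 9.83% of summed ORAI TPM in controls, 67.1 ± 3.23% in high calcium and 35.1 ± 10.4% in TGFb3, and ORAI1 65.1 ± 11.4%, 19.9 ± 3.57% and 35.3 ± 6.32%. Summed ORAI RNA was at 9.01 ± 2.34, 26.4 ± 2.94 and 15.5 ± 1.61 TPM.

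ORAI3 shares 1397 exonic bases, 52.9% of its own, with AC135048.1, a noncoding gene on the same strand (chr16:30948386-30956511), so reads of the shared bases can be assigned to either. AC135048.1 was at 2.06, 1.06 and 0 TPM in controls, 4.83, 3.58 and 3.35 in high calcium and 2.25, 1.47 and 1.15 in TGFb3. In the controls it was highest in the replicate where ORAI3 was lowest and at 0 where ORAI3 was highest. Their sum was 2.89, 3.23 and 3.64 TPM in controls, 22.7, 22.3 and 19.8 in high calcium and 6.45, 6.30 and 8.47 in TGFb3, so the SD of the controls was 0.372 for the sum and 1.40 for ORAI3 alone. With the sum in place of ORAI3, an alternative chosen after seeing the data, the log2 difference was 2.41 ± 0.12 in high calcium (adjusted p = 9.34e-08) and 0.92 ± 0.12 in TGFb3 (adjusted p = 8.88e-05). The ORAI shares, the order of levels and the percentiles in this report use ORAI3 alone and were not recomputed with the sum. Their values for ORAI3, above all in the controls, therefore depend on how the shared reads were assigned.

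**Figure D4:**
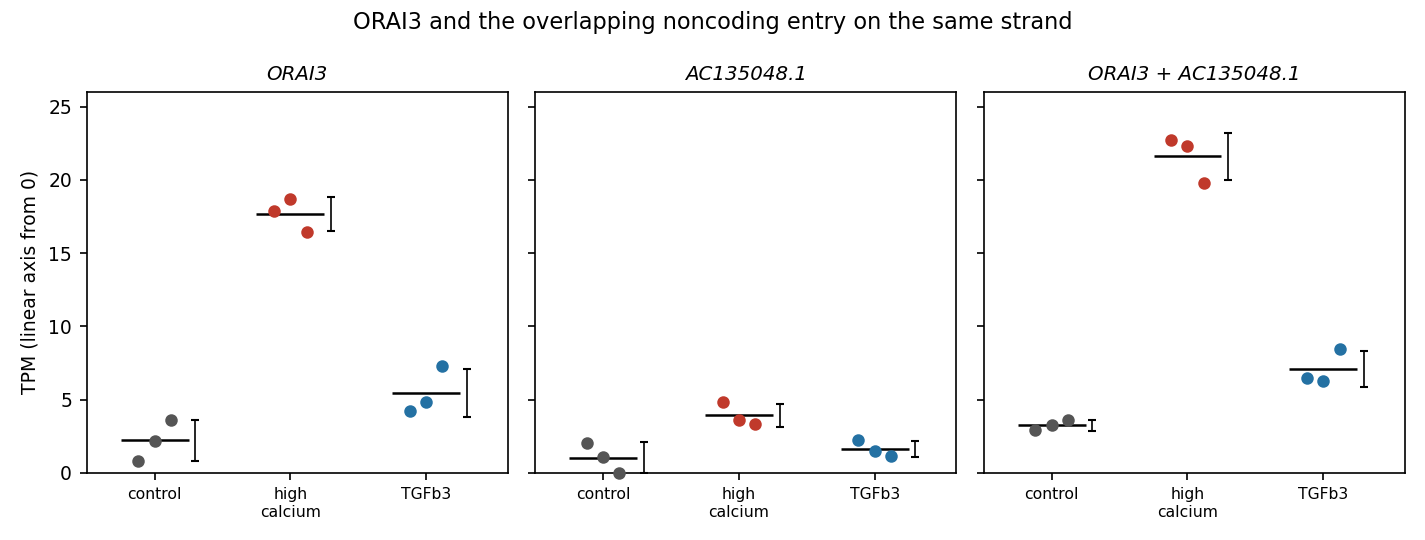
TPM of ORAI3, of the overlapping noncoding gene AC135048.1 and of their sum in the 9 samples; points are samples, black lines group means and brackets ± SD over 3 samples. The controls of the sum lie between 2.89 and 3.64 TPM, while those of ORAI3 alone lie between 0.833 and 3.64 TPM.

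Set against each other, high calcium was higher than TGFb3 for 4 of the 9 tested members and lower for 0, where 50.4% of all tested symbols were called higher and 16.2% lower (66.5% either way). The 4 were ORAI3 (log2 1.56 ± 0.29, adjusted p = 0.000931), ATP2B1 (log2 1.53 ± 0.057, adjusted p = 1.1e-08), STIM1 (log2 0.89 ± 0.062, adjusted p = 9.65e-07) and ATP2A2 (log2 0.51 ± 0.045, adjusted p = 5.4e-06). Their samples did not overlap between the treatments, as for 71.2% of all tested symbols. ATP2C1 differed by a log2 of -0.011 (95% interval -0.098 to 0.076, adjusted p = 0.817) and ATP2B4 by 0.11 (interval -0.097 to 0.31, adjusted p = 0.322). With values rescaled, ATP2C1 was called lower in high calcium than in TGFb3, at a log2 difference of -0.30 after median ratio rescaling, -0.23 after quantile normalisation and -0.21 with mitochondrial genes left out. The log2 difference was -0.30 for ORAI2 (interval -0.997 to 0.40), -0.062 for STIM2 (interval -0.33 to 0.21) and -0.051 for ORAI1 (interval -0.37 to 0.27), and none was called as deposited. STIM2 was called lower in high calcium than in TGFb3 after median ratio rescaling (log2 -0.33, adjusted p = 0.0377) and quantile normalisation (log2 -0.33, adjusted p = 0.0414), and ORAI1 after quantile normalisation (log2 -0.38, adjusted p = 0.03).

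The order of the levels, which TPM allows because it is corrected for length, shifted in the middle. In the controls it ran ATP2A2, ATP2C1, ATP2B1, STIM2, STIM1, ORAI1, ATP2B4, ORAI3, ORAI2 and ATP2C2, and the samples of neighbours overlapped for ORAI1 with ATP2B4 and for ORAI3 with ORAI2. In high calcium STIM1 stood directly below ATP2B1, with ORAI3 next, overlapping STIM2 below it. In TGFb3 STIM1 stood directly below ATP2C1 and above ATP2B1, which overlapped STIM2, and the 3 ORAI genes overlapped in a row. Among all tested symbols ranked by mean TPM, ORAI3 stood at percentile 15.7 in controls, 49.2 in high calcium and 28.4 in TGFb3. STIM1 stood at 51.1, 71.8 and 59.3, ATP2B1 at 66.6, 79.3 and 56, and ATP2A2 at 96.1, 97.7 and 97.1.

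The genes most like each member were named by Pearson correlation of log2(TPM + 1) over the 9 samples among 8603 candidates with a mean of at least 10 TPM. These values describe 9 samples that share 3 treatments. ATP2B1 was most like PTP4A1 (r = 0.9987), which went from 419 TPM in controls to 830 in high calcium and 288 in TGFb3, and SRGAP3 (r = 0.9974). ATP2A2 was most like ITGA3 (r = 0.998) and WASF2 (r = 0.9966), and STIM1 like YIPF2 (r = 0.9979) and RND3 (r = 0.9977). ATP2C1 was most like TMSB4X (r = 0.9956) and MGEA5 (r = 0.9934), both high in either treatment. ATP2B4 was most like ATG4A (r = 0.9799) and PGM3 (r = 0.979), ORAI3 like SBF2 (r = 0.9934) and TRIM8 (r = 0.9863), and ORAI2 like FAM160B2 (r = 0.9598) and EVI5 (r = 0.9414). STIM2 (DIS3L2, r = 0.9241, and CCDC18, r = 0.8978) and ORAI1 (SLC35A4, r = 0.8407, and MFHAS1, r = 0.8223) had the least alike partners. Among the members, ATP2A2 and STIM1 were most alike (r = 0.993).

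Other genes of calcium handling were counted in lists drawn up by function. Their counts of calls are a description, to be read against the shares over all tested symbols: 46.1% higher and 17% lower in high calcium, and 26.5% higher and 33.1% lower in TGFb3. Of the store-operated entry regulators and TRPC channels, 5 of 12 could be tested; 3 rose and 1 fell in high calcium (2 and 2 after median ratio rescaling), and 3 rose and 1 fell in TGFb3 (4 and 1). SARAF, which turns store-operated entry off, went from 136, 152 and 122 TPM in controls to 302, 276 and 297 in high calcium and 174, 163 and 180 in TGFb3. Its log2 difference was 1.09 ± 0.074 in high calcium (adjusted p = 7.68e-07) and 0.34 ± 0.074 in TGFb3 (adjusted p = 0.00276). TRPC1, a channel of the TRPC family, rose by a log2 of 0.97 in high calcium and 1.03 in TGFb3, and HOMER1, a scaffold protein, fell by 0.18 and 0.68. ESYT1, a tether between the endoplasmic reticulum and the plasma membrane, rose by a log2 of 0.48 in TGFb3. TMEM110, which helps STIM1 reach the plasma membrane, rose by a log2 of 0.28 in high calcium, a call lost under each of the 3 rescalings. TRPC5 and TRPC7 were at 0 in all 9 samples.

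Of the pump subunits and small regulators, 5 of 9 in the table could be tested, and 3 rose and 2 fell in high calcium (46.1% and 17% of all tested symbols). After median ratio rescaling 0 rose and 2 fell, and the rises of BSG (log2 0.22), a partner of plasma membrane pumps, and TMEM165 (log2 0.19), a Golgi cation transporter, were lost under each of the 3 rescalings (BSG to -0.023 and TMEM165 to -0.045 after median ratio rescaling). NPTN, the other partner of plasma membrane pumps, fell by a log2 of 0.24 in high calcium and TMX1, a thioredoxin-like regulator of the endoplasmic reticulum pump, by 0.40. In TGFb3 1 rose and 2 fell (3 rose and 2 fell after median ratio rescaling), BSG by a log2 of 0.36 and TMX1 by 0.19. Phospholamban (PLN) was at 0 in all 9 samples. Of the release and leak channels 11 of 13 could be tested; 5 rose and 0 fell in high calcium (2 rose and 2 fell after median ratio rescaling, 3 and 4 after quantile normalisation), and 5 rose and 2 fell in TGFb3. RYR1, a calcium release channel, rose in high calcium by a log2 of 0.85 ± 0.094 (adjusted p = 2.69e-05) and ITPR3, an inositol trisphosphate receptor, by 0.46. In TGFb3, ITPR2 rose by a log2 of 0.68 and ITPR3 by 0.54, while the lysosomal channel TPCN1 fell by 0.79.

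The list of calcium-binding proteins of the endoplasmic reticulum had the largest median difference in high calcium, 1.60 on the log2 scale. All 10 were tested; 9 rose and 0 fell in high calcium, under each of the 3 rescalings too, and 6 rose and 1 fell in TGFb3 (7 and 0 after median ratio rescaling, 7 and 2 after quantile normalisation). HSPA5, the main chaperone, went from 298 ± 7.61 to 2962 ± 11.4 TPM in high calcium and 405 ± 14.5 in TGFb3. CALR, a lectin chaperone that binds calcium, rose by a log2 of 2.37 in high calcium and 0.79 in TGFb3. RCAN1, a target and regulator of calcineurin, went from 16.0 ± 0.700 to 170 ± 1.26 TPM in high calcium and 18.5 ± 0.689 in TGFb3.

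Of the other plasma membrane channels and the calcium-sensing receptor, 5 of 9 could be tested, and 5 rose in either treatment, where 46.1% of all tested symbols rose in high calcium and 26.5% in TGFb3 (4 in high calcium after each rescaling and 4 in TGFb3 after quantile normalisation). P2RX4, an ATP-gated channel, was at 5.01, 4.95 and 4.16 TPM in controls, 27.2, 30.8 and 28.1 in high calcium and 7.77, 9.09 and 7.48 in TGFb3, and its log2 difference was 2.38 ± 0.097 in high calcium (adjusted p = 2.5e-08). TRPM4 rose by a log2 of 1.56 in high calcium and 0.59 in TGFb3. The calcium-sensing receptor gene CASR and the channel gene TRPV5 were at 0 in all 9 samples. Of the sodium-calcium exchangers 2 of 9 could be tested and 4 (SLC8A2, SLC8A3, SLC24A2 and SLC24A5) were at 0 in all 9 samples. SLC24A1, a potassium-dependent exchanger, was at 2.92, 2.52 and 3.52 TPM in controls, 17.3, 17.7 and 11.8 in high calcium and 3.44, 5.27 and 4.63 in TGFb3, and rose in high calcium (log2 2.05 ± 0.18, adjusted p = 4.87e-06). Of the mitochondrial uptake genes 7 of 8 could be tested; 3 rose and 1 fell in high calcium, against 0 and 3 after median ratio rescaling, and MCU, the pore of mitochondrial uptake, fell by a log2 of 0.30. In TGFb3 1 rose and 2 fell, and MICU3 was at 0 in all 9 samples. Among the calmodulins, CALM3 rose by a log2 of 0.80 in high calcium and CALM2 fell by 0.32 in TGFb3. CALML3, a calmodulin-like gene, was at 0 in all 9 samples.

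With the treatments set against each other, 50.4% of all tested symbols were higher in high calcium and 16.2% lower, and the counts of the lists are to be read against these shares. High calcium was higher for 9 and lower for 0 of 10 calcium-binding proteins of the endoplasmic reticulum, also after each rescaling. It was higher for 4 and lower for 1 of 5 other plasma membrane channels (2 and 1 after each rescaling), and for 5 and 4 of 11 release and leak channels (3 and 7 after median ratio rescaling). Among the mitochondrial uptake genes it was higher for 5 and lower for 1 of 7, against 2 and 2 after median ratio rescaling. Of the store-operated entry regulators it was higher for 2 and lower for 1 of 5 (2 and 2 after median ratio rescaling or quantile normalisation). High calcium was higher for 2 and lower for 2 of 5 pump subunits (1 and 4 after median ratio rescaling). Of the 2 exchangers it was higher for 1 and lower for 0.

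**Figure D5:**
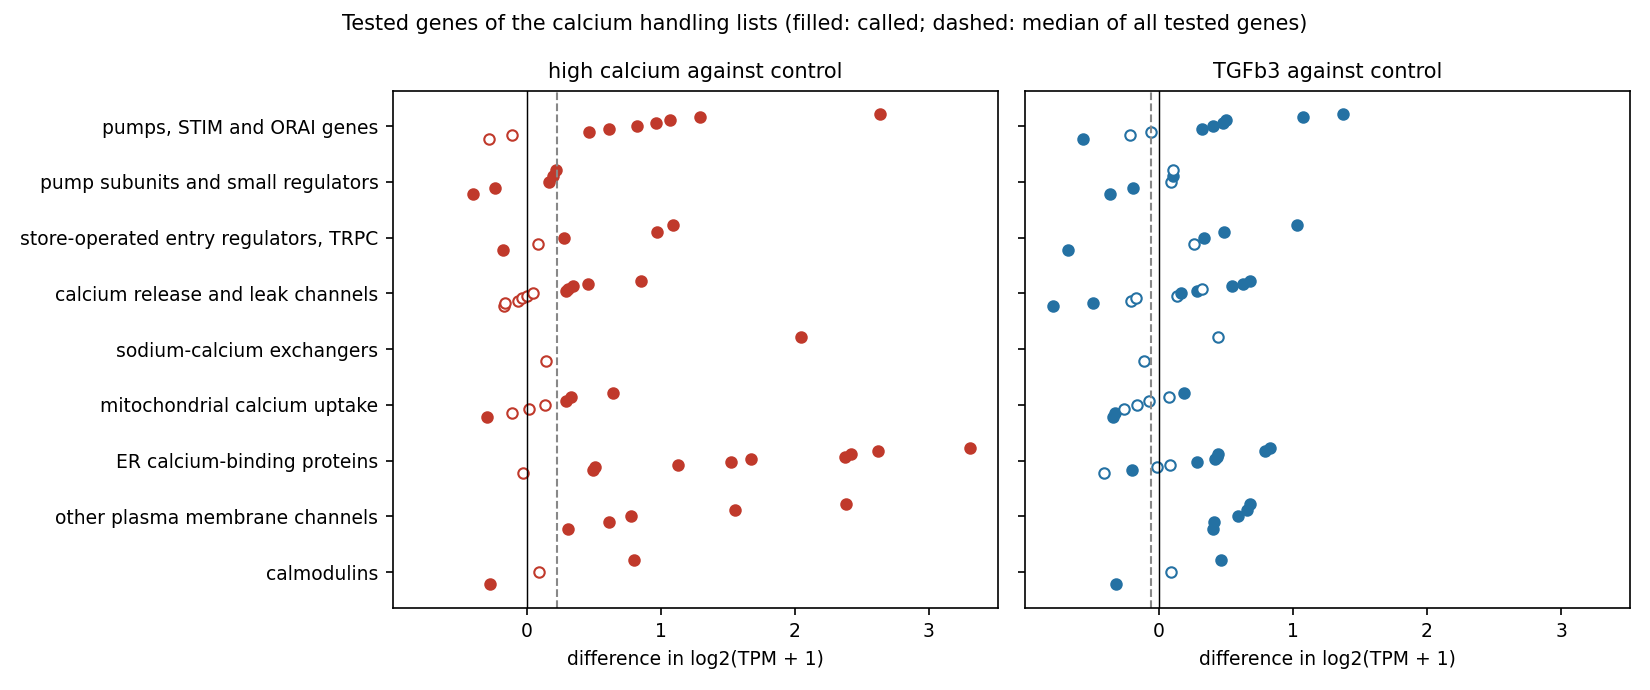
Log2 difference of TPM + 1 for every tested gene of the calcium lists and of the 9 tested members, in high calcium against control and in TGFb3 against control. Points are genes, filled where called, and dashed lines are the medians of all tested symbols. The calcium-binding proteins of the endoplasmic reticulum reach the highest values in high calcium (HSPA5 at 3.31), and ORAI3 at 2.64 is the highest member.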

How the data were processed

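RNA of MCF10A cells was read as 101 bp paired ends in 9 samples, 3 each of control, high calcium and TGFb3. The authors deposited 1 table of TPM values for 58288 entries, with HISAT2 and hg38 named in the submitters' processing notes. Not given in the sources used are the HISAT2 version, the quantifying program, the annotation and the strandedness. TPM keeps no depth, so no counting interval is given.

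Groups came from the labels. The 1932 entries that share 253 symbols were summed. Values were tested as log2(TPM + 1), with a pseudocount of 1, over symbols whose mean reached 1 TPM. This scale understates changes of low genes. limma 3.58.1 (R 4.3.3) was fitted on all 9 samples with a trended empirical Bayes variance, two-sided, adjusted by Benjamini-Hochberg within each comparison. The fit was also run on simulated data with few changed genes and no shift of library composition. These data differ in both, so that run cannot vouch for the calls. Coordinates and overlaps came from GENCODE release 29, in which 55661 of the deposited identifiers were found with their version. Promoters came from RefSeq (GRCh38.p14). Python 3.11.15, pandas 2.3.3 and matplotlib 3.10.9 made tables and figures.

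The members, the gene lists, the motifs and the naming rule were chosen with earlier results of these data known. The rule names all members, up to 4 called genes of each list with the largest difference, list genes at 0 in all 9 samples, and the 2 most alike genes per member; not every gene it picks is named, and some list genes are not reported here. Alternatives changed the pseudocount, filter, scaling, variance model, symbol summing, samples fitted, replicate block and replicates left out.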

Additional observations from a re-analysis of the deposited data

How the results depend on the processing

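Of the 18 calls among members, 17 kept their direction and stayed past the threshold under every alternative run; the exception was ORAI2 in high calcium against control. The ORAI3 difference ranged from 2.28 to 3.16 on the log2 scale in high calcium. Raising the filter to a mean of 5 TPM left out ORAI2, which then has no value.

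The number of members called in high calcium against TGFb3 went from 4 to 7 after quantile normalisation (4 higher, 3 lower). The ATP2B4 difference between the treatments reversed to -0.15 after median ratio rescaling, -0.20 after quantile normalisation and -0.069 with mitochondrial genes left out. None of these 3 was called, and the cause was not tested. Leaving out 1 sample at a time gave ranges across zero for differences that were not called: -0.032 to 0.017 for ATP2C1, -0.19 to 0.078 for ORAI1, -0.57 to 0.025 for ORAI2 and -0.17 to 0.059 for STIM2 in high calcium against TGFb3, -0.25 to 0.019 for ORAI1 in high calcium against control, and -0.11 to 0.014 for ORAI1 in TGFb3 against control. The mitochondrial share in TGFb3 against control ranged from -0.512 to 0.3095 percentage points. STIM2 was called lower in high calcium without high calcium replicate 1 (-0.37, adjusted p = 0.0305), without TGFb3 replicate 2 or 3 and when the fit held the 2 groups alone, and in TGFb3 without TGFb3 replicate 3 (-0.34, adjusted p = 0.0282).

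Same-numbered samples did not deviate together (correlations of -0.0747 to -0.00372), so the numbers were not taken as pairs. With the replicate block 7 members were called in high calcium, 7 in TGFb3 and 4 between the treatments, as without it, and 8557, 8044 and 9118 genes in place of 8816, 8326 and 9294 (each against the control, then between the treatments).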

Other observations

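ATP2B1-AS1 is a noncoding gene on the opposite strand that starts within the span of ATP2B1 (chr12:89708959-89712590, + strand, 82 shared exonic bases). It was at 0.147, 0.234 and 0.175 TPM in controls, 1.40, 1.30 and 1.44 in high calcium and 0.107, 0.224 and 0.185 in TGFb3. Its high calcium samples lay above all others, as did those of ATP2B1. The ATP2B1 run printed above lies within its span. The antisense gene ATP2C2-AS1 was higher than ATP2C2 in all 9 samples.

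Among the members, and as a description over 9 samples that share 3 treatments, log2 values of ATP2A2 and ORAI3 correlated at r = 0.962 and those of STIM1 and ORAI3 at 0.934. The lowest value was that of STIM2 and ORAI2, at -0.841. ATP2B1 and ATP2C1 had r = 0.127.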
